A study of Rattus norvegicus with 9 samples.

Results

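The mRNA of 10 transcription factors of the mast cell (MC) lineage was followed in RBL-2H3 cells (RBLs), a clonal rat basophilic leukemia line used as a MC model. The 10 factors were taken as a fixed list of symbols, namely Gata1, Gata2, Mitf, Spi1, Tal1, Lmo2, Lyl1, Runx1, Fli1 and Ikzf1, and each symbol matched 1 gene among the 18006 genes with a value. There were 3 samples in each of 3 groups. The Ctrl samples carried the treatment label untreated, although a protocol field shared by the whole series described IgE and antigen, so whether they had been given IgE was not settled. The IgE/DNP samples (DNP) had been given anti-DNP IgE at 50 ng/mL for 12 h and then the antigen DNP-HSA at 100 ng/mL for 4 h. The PF samples had received the same IgE and antigen, with an agent called PF added 1 h before the antigen. The labels do not say what PF is, and they give the antigen exposure of the 3 PF samples as 4, 5 and 6 h in a characteristics field but as 4 h in the protocol field. Nothing states that the replicates came from separate cultures, so the p-values measure the spread between these samples.

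MCs arise from blood progenitors, and a small set of DNA-binding proteins both opens that path and keeps the mature cell in its state. GATA1 and GATA2 are zinc finger proteins that bind the GATA motif in genes for IgE receptor chains and proteases. PU.1, encoded by Spi1, and FLI1 belong to the ETS family. TAL1 and LYL1 are basic helix-loop-helix proteins that bind E-boxes together with E proteins, and the LIM protein LMO2 bridges them to GATA factors. RUNX1 binds DNA with its partner CBFβ, and IKZF1 (Ikaros) is a zinc finger regulator of blood cells. MITF, which also governs melanocytes, is needed for normal MC development and for Kit expression.

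Each value was read as FPKM, the fragments of a gene scaled to transcript length and library size. The sum over genes was 573023 to 591539 FPKM for Ctrl and DNP and 610206 to 630069 FPKM for PF. The read depth itself was unknown. Relative depth, from the steps between low values of 15 genes, lay between 0.986 and 1.02 over the 9 samples. Those genes were kept only if their values in all samples lay near whole multiples of a shared unit. A larger difference in depth could therefore not appear, and equal depth was not tested. All 10 MC and basophil markers with a value averaged at least 1 FPKM. Their summed level was 5018 to 5196 FPKM in Ctrl, 5011 to 5098 FPKM in DNP and 5243 to 5443 FPKM in PF. Srgn alone was at 2688 to 3004 FPKM, so the sum says little about markers with lower levels. The 3 melanocyte markers with a value, a check that bears on Mitf, summed to at most 0.36 FPKM in any sample. Of 8 erythroid markers, which bear on Gata1 and Tal1, Alas2 was at most 0.04 FPKM and Hbb at most 0.35 FPKM, Hba-a1 reached 1.64 FPKM, and Epor was at 7.40 to 14.5 FPKM. Their summed level was 15.0 to 17.1 FPKM in Ctrl, 8.90 to 10.8 FPKM in DNP and 8.94 to 11.3 FPKM in PF. Epor alone was at 12.2 to 14.5 FPKM in Ctrl, 7.40 to 8.80 FPKM in DNP and 7.42 to 8.04 FPKM in PF. Only 2 of the 8 averaged at least 1 FPKM, so this sum says little about the other erythroid markers. Its part in the results for Gata1 and Tal1 was not tested. The platelet gene Pf4 was at 660 to 840 FPKM. Non-coding RNA genes overlap the gene bodies of Gata1, Gata2, Spi1 and Lmo2 in the RefSeq annotation and had no value in the files, so reads from them could not be separated from these factors.

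Promoter windows were taken from RefSeq on the GRCr8 build, another build than the rn6 of the files. Each window of a factor covered 250 bases before an annotated start of its gene. Whether these cells use that start was not tested. Of the 10 factors, 7 were in that set, and Spi1, Lmo2 and Fli1 were not. The windows of Gata1, Gata2, Tal1 and Runx1 are shown because these are the genes of the set that were lower in PF than in both other groups, and that of Lyl1 because it is the close relative of Tal1 and was not. They are written 5′ to 3′ in lower case. Capitals mark matches, on either strand, to GATA motifs (AGATAA or TGATAA), E-boxes (CANNTG, of which CACGTG and CACATG are forms that MITF binds), the RUNX motif TGTGGT and the ETS motif CCGGAA, and positions are counted back from the start site.
Gata1, chrX:17201387-17201636, plus strand: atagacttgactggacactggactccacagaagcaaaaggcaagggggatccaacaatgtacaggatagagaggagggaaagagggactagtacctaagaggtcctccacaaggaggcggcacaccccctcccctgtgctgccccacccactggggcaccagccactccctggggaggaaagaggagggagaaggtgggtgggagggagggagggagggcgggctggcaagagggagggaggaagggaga
Gata2, chr4:122216031-122216280, plus strand: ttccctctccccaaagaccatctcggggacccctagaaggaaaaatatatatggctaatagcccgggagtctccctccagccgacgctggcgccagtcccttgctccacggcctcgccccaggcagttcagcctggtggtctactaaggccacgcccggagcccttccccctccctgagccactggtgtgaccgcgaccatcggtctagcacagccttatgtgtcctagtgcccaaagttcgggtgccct
Tal1, chr5:133824214-133824463, plus strand: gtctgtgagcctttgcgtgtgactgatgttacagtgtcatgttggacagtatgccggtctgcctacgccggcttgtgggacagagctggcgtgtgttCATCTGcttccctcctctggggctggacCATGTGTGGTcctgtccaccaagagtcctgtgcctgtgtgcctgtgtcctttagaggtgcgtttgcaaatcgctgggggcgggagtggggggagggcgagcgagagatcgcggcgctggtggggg
Runx1, chr11:45421326-45421575, minus strand: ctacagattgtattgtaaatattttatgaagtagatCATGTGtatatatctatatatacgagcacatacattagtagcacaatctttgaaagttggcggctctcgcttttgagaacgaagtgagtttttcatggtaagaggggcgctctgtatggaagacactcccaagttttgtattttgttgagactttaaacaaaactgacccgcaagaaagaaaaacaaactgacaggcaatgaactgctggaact
Lyl1, chr19:40359835-40360084, minus strand: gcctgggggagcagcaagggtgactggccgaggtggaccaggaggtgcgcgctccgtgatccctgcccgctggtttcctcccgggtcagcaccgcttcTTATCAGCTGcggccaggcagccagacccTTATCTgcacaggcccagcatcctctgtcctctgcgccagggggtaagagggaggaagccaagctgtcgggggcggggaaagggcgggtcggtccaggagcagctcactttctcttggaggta

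The Lyl1 window held 2 GATA matches, TTATCA from position -152 and TTATCT from position -123 relative to the start site, and the E-box CAGCTG overlapped the first of them. A GATA match occurred in 16.9% of all 33469 windows of this length. The Tal1 window held the E-boxes CATCTG and CATGTG, the latter of the MITF form, and the RUNX match TGTGGT shared bases with CATGTG. Some E-box was present in 65.5% of all windows, the MITF form in 17.1% and the RUNX match in 14.5%. No such letters, and none of the ETS motif found in 12.6% of windows, stood in the Gata1 and Gata2 windows. Among the other factors, the Runx1 window had 1 E-box of the MITF form, CATGTG from position -214, the Mitf window had 1 RUNX match, and the Ikzf1 window had none of these. A match describes letters in a window and not a bound site.

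All 10 factors were expressed in every sample, over a range from 7.67 FPKM for Lyl1 to 396 FPKM for Gata2. FPKM is scaled to transcript length, so the levels of different genes can be set in order. In Ctrl cells Gata2 stood first at 391 ± 5.05 FPKM (SD, n = 3), above 98.8% of all genes with a value. Fli1 followed at 102 ± 2.87 FPKM, then Spi1 at 79.8 ± 3.84 FPKM, Gata1 at 59.3 ± 3.22 FPKM, Ikzf1 at 46.0 ± 0.0551 FPKM and Tal1 at 41.3 ± 1.39 FPKM (SD, n = 3 each). The lower end was formed by Runx1, Lmo2, Mitf and Lyl1, the last at 8.91 ± 0.390 FPKM (SD, n = 3). Neighbours in this order were separated, the 3 samples of the higher gene lying above those of the lower, except Lmo2 and Mitf, whose samples overlapped.

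The order shifted between groups. In DNP cells Ikzf1, at 56.6 ± 2.48 FPKM, had drawn level with Gata1, at 56.8 ± 1.22 FPKM (SD, n = 3 each), and Mitf and Lmo2 again overlapped. In PF cells Fli1 had dropped from the second place to the fourth, below Spi1 and Ikzf1. Runx1, Mitf and Lmo2 lay together there at 20.8 ± 0.550, 20.8 ± 0.387 and 20.3 ± 1.13 FPKM (SD, n = 3 each), with each neighbouring pair overlapping, and so did Gata1 and Tal1. Gata2 kept the first place and Lyl1 the last in all 3 groups.

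**Figure D1:**
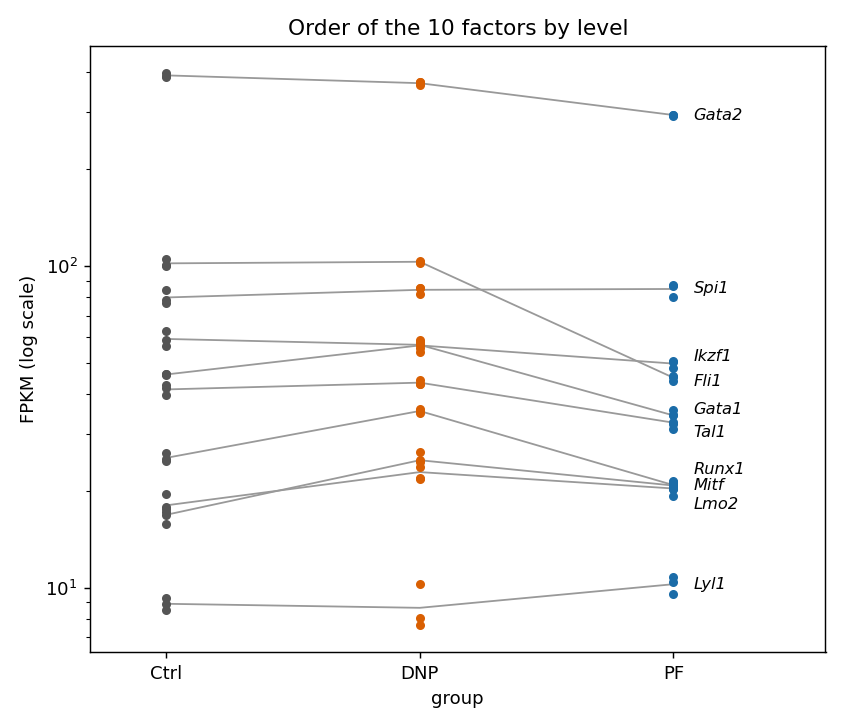
Level of the 10 factors in FPKM on a log axis, by group, with 1 point per sample (3 in each group) and grey lines joining group means. Fli1 crosses below Spi1 and Ikzf1 between DNP and PF, from 103 to 44.9 FPKM, while Gata2 stays on top and Lyl1 at the bottom.

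The DNP samples were compared with Ctrl. Whether Ctrl cells had been given IgE was not settled, so antigen and IgE cannot be told apart in this comparison. Mitf, Runx1, Lmo2 and Ikzf1 rose, by between 23.1% and 47.8% of the Ctrl mean, and none of the 10 was called lower. These 4 of 10 were called by limma (adjusted p up to 0.05), against 29.2% of the 10392 genes tested, and the 4 higher stand beside 14.7% of genes called higher and 14.4% called lower. The median log2 fold change was 0.07 over the 10 factors and -0.01 over all genes tested. Gata2, Fli1, Spi1, Gata1, Tal1 and Lyl1 did not pass. In bulk RNA a lower value in every cell cannot be told apart from fewer cells that express the gene.

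The PF samples were compared with DNP and with Ctrl. These comparisons share their PF samples, and each shares its other group with the comparison of DNP and Ctrl. Against DNP, 7 of the 10 factors were called lower (Fli1, Runx1, Gata1, Tal1, Gata2, Mitf and Ikzf1) and none higher. This stands beside 48.8% of 10329 genes called, 30.7% lower and 18.1% higher. Against Ctrl, 5 fell (Fli1, Gata1, Gata2, Tal1 and Runx1) and 3 rose (Mitf, Lyl1 and Ikzf1), beside 57.7% of 10361 genes called, 34.6% lower and 23.1% higher. The median log2 fold change of the factors was -0.29 against DNP and -0.09 against Ctrl, with -0.04 and -0.05 over all genes tested. The deposited sums were higher in PF. Of the genes called in PF vs DNP, 37.1% were higher as deposited, 51.5% after scaling by median ratios and 16.8% after scaling to the mean sum, and in PF vs Ctrl these shares were 40.0%, 51.1% and 26.7%. Under both scalings the 7 factors remained lower in PF vs DNP, and Fli1, Gata1, Gata2, Tal1 and Runx1 remained lower and Mitf higher in PF vs Ctrl. The number of factors higher in PF vs Ctrl depended on the scaling. After median ratios 5 were higher and 5 lower, beside 3142 higher and 3012 lower of 10342 genes. After the mean sum 1 was higher and 5 lower, beside 1575 higher and 4316 lower of 10343 genes. In PF vs DNP the counts were 1 higher and 7 lower after median ratios, beside 2758 and 2600 of 10318 genes. They were 0 higher and 8 lower after the mean sum, beside 869 and 4302 of 10320 genes. In a check added after seeing the data, PF replicate 1, for which both label fields state 4 h, stood alone for its group. The median log2 fold change of the factors was then -0.28 against DNP, beside -0.04 over all genes tested. Against Ctrl these medians were -0.07 and -0.05. A lone PF sample has no spread of its own and is assumed to vary like the other group. These medians therefore do not show whether the stated times matter. The number of factors higher in PF than in Ctrl was 1 in place of 3 without Ctrl replicate 1, Ctrl replicate 2 or PF replicate 1. The genes called higher were then 2024 of 10163, 2175 of 10166 and 1979 of 10269.

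**Figure D2:**
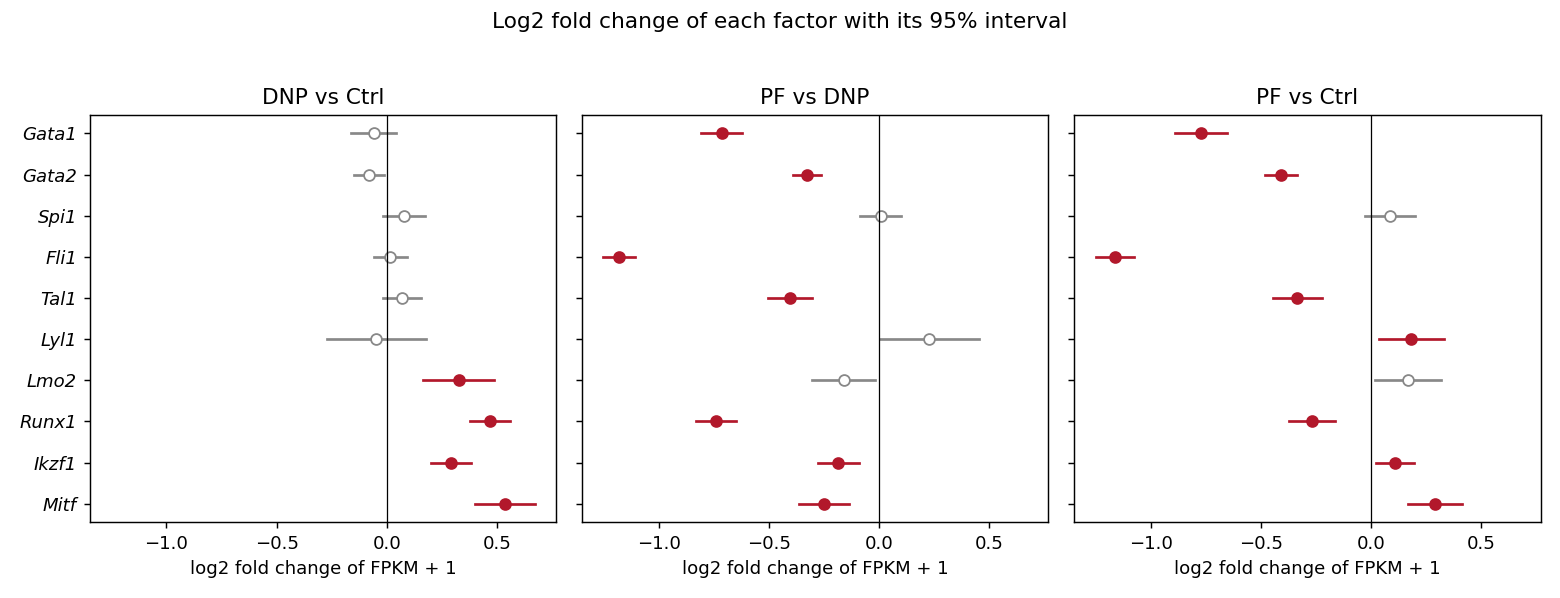
Log2 fold change of FPKM + 1 (horizontal axis) of the 10 factors in the 3 comparisons, 3 samples against 3, with 95% intervals from limma. Filled red points have an adjusted p of at most 0.05 and open grey points do not. Fli1 lies farthest to the left, at -1.18 in PF vs DNP and -1.16 in PF vs Ctrl.

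The GATA pair, which binds the same motif, differed little between Ctrl and DNP and was lower in PF. Gata1 measured 58.6, 62.8 and 56.4 FPKM in Ctrl, 55.6, 58.1 and 56.8 FPKM in DNP and 32.8, 35.6 and 34.5 FPKM in PF. The PF samples were the lowest 3, and Ctrl and DNP overlapped. Gata1 fell in PF with a log2 fold change of -0.71 against DNP (standard error of the fit, SE, 0.0412, limma adjusted p = 2.70e-06) and of -0.77 against Ctrl (SE 0.0520, limma adjusted p = 7.87e-06). The mean fell by 39.7% from DNP to PF. In DNP vs Ctrl it had a log2 fold change of -0.06 (95% interval -0.16 to 0.04, limma adjusted p = 0.357).

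Gata2, the most abundant of the 10, was at 386, 396 and 390 FPKM in Ctrl, at 372, 364 and 373 FPKM in DNP and at 293, 295 and 295 FPKM in PF. The 3 groups did not overlap. It fell in PF by 0.33 on the log2 scale against DNP (SE 0.0278, limma adjusted p = 2.43e-05) and by 0.41 against Ctrl (SE 0.0319, limma adjusted p = 1.69e-05). The smaller difference between DNP and Ctrl, a log2 fold change of -0.08 (95% interval -0.15 to -0.01), missed the threshold with a limma adjusted p of 0.0736. It passed with all 3 groups in the fit, at 0.0473, and ranged up to 0.207 over the alternatives. The ratio of Gata2 to Gata1 FPKM was 6.31 to 6.92 in Ctrl, 6.27 to 6.68 in DNP and 8.28 to 8.95 in PF, so that the PF samples had the highest 3 ratios.

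The ETS factors Fli1 and Spi1 differed from each other. Fli1, a factor best known in endothelium and megakaryocytes, was at 100.7, 99.7 and 105 FPKM in Ctrl, at 102, 104 and 103 FPKM in DNP and at 43.9, 45.6 and 45.3 FPKM in PF. The DNP samples lay within the Ctrl range, while every PF sample lay far below the other groups. Its log2 fold change was -1.18 in PF vs DNP (SE 0.0320, limma adjusted p = 7.57e-08) and -1.16 in PF vs Ctrl (SE 0.0385, limma adjusted p = 4.76e-07), the largest fall among the 10. In absolute size the change against DNP was above that of 98.6% of all genes tested. It stayed between -1.28 and -1.12 against DNP over the 16 alternatives. Between DNP and Ctrl the log2 fold change was 0.02 (95% interval -0.06 to 0.09, limma adjusted p = 0.740).

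Spi1, which encodes PU.1, was at 76.8, 84.1 and 78.4 FPKM in Ctrl, at 85.4, 85.4 and 81.9 FPKM in DNP and at 86.7, 87.3 and 80.2 FPKM in PF. The 3 groups overlapped. None of its differences passed, with log2 fold changes of 0.08 in DNP vs Ctrl (95% interval -0.02 to 0.17, limma adjusted p = 0.191), 0.01 in PF vs DNP (-0.09 to 0.10, limma adjusted p = 0.889) and 0.09 in PF vs Ctrl (-0.03 to 0.20, limma adjusted p = 0.166). With median ratios the last was 0.15 and passed at 0.0298, and its adjusted p reached 0.899 under another alternative. The ratio of Fli1 to Spi1 FPKM was between 1.19 and 1.34 in the Ctrl and DNP samples and between 0.506 and 0.564 in the PF samples.

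Of the factors that sit together on E-box and GATA sites, Tal1, Lmo2 and Lyl1 each showed another pattern. Tal1 was at 41.6, 39.8 and 42.5 FPKM in Ctrl, at 44.1, 42.9 and 43.1 FPKM in DNP and at 31.2, 34.3 and 32.2 FPKM in PF. The PF samples were the lowest 3, and the DNP samples lay just above the Ctrl samples. Tal1 fell in PF by 0.40 on the log2 scale against DNP (SE 0.0435, limma adjusted p = 9.86e-05) and by 0.33 against Ctrl (SE 0.0494, limma adjusted p = 5.33e-04). Between DNP and Ctrl its log2 fold change was 0.07 (95% interval -0.02 to 0.16, limma adjusted p = 0.213).

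Lmo2, the bridging protein, was at 17.8, 16.8 and 19.5 FPKM in Ctrl, at 21.7, 24.9 and 22.0 FPKM in DNP and at 20.2, 21.5 and 19.3 FPKM in PF. Every DNP sample was above every Ctrl and PF sample. Lmo2 rose in DNP vs Ctrl with a log2 fold change of 0.33 (SE 0.0704, limma adjusted p = 0.0102). It did not pass in PF vs DNP, at -0.16 (95% interval -0.31 to -0.02, limma adjusted p = 0.0639), or in PF vs Ctrl, at 0.17 (0.02 to 0.32, limma adjusted p = 0.0581). Each of these passed in 3 of 16 alternatives, with an adjusted p between 0.00869 and 0.220 against DNP and between 0.0185 and 0.271 against Ctrl. PF vs DNP passed without PF replicate 2 (-0.20, 0.0436), with the mean sum (-0.26, 0.00869) and with a replicate block (0.0334). PF vs Ctrl passed without Ctrl replicate 3 (0.22, 0.0210), without PF replicate 3 (0.20, 0.0456) and with median ratios (0.23, 0.0185).

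Lyl1, the relative of Tal1 with the lowest level, was at 8.90, 8.52 and 9.30 FPKM in Ctrl, at 10.3, 8.03 and 7.67 FPKM in DNP and at 10.4, 9.53 and 10.8 FPKM in PF. DNP replicate 1 stood apart from the other DNP samples and overlapped the PF range. Lyl1 rose in PF vs Ctrl with a log2 fold change of 0.18 (SE 0.0650, limma adjusted p = 0.0396). That call was lost without Ctrl replicate 1, Ctrl replicate 2, PF replicate 1 or PF replicate 3, although the log2 fold change was still 0.15 to 0.18. It was also lost with PF replicate 1 as the lone PF sample, where the change was 0.21 (0.122), and after scaling to the mean sum, where it was 0.11, with an adjusted p of 0.0103 to 0.225 over the alternatives. In PF vs DNP the log2 fold change was 0.23 (95% interval 0.00 to 0.45, limma adjusted p = 0.0859). Without DNP replicate 1 it was 0.34 and passed at 0.00729, and with median ratios it was 0.29 and passed at 0.0372, within a range of 0.00729 to 0.289 over the alternatives. Between DNP and Ctrl it was -0.05 (-0.27 to 0.18, limma adjusted p = 0.755).

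**Figure D3:**
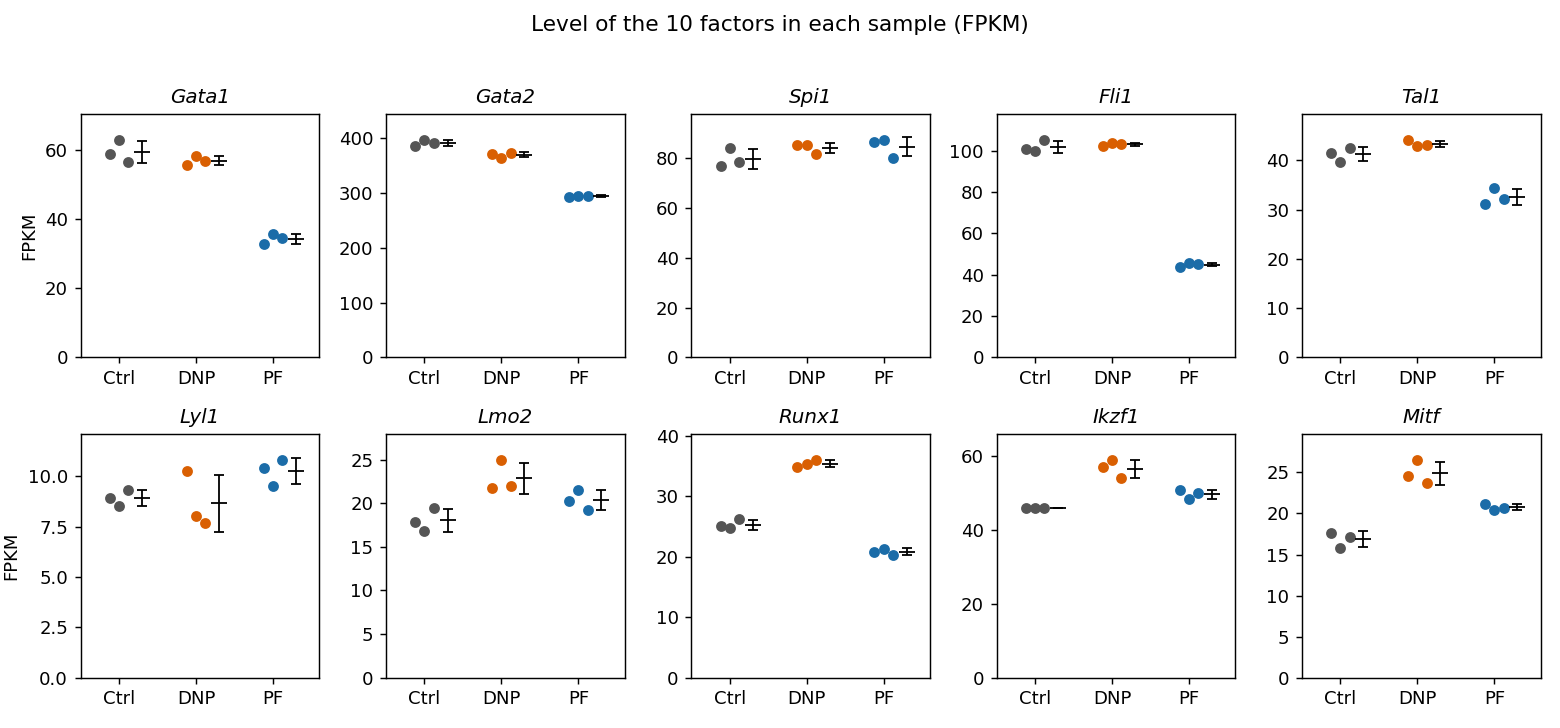
FPKM of each of the 10 factors in the 9 samples, 1 panel per gene with its own linear axis from 0, with 3 points per group in replicate order and a bar for the mean ± SD beside them. Runx1, Mitf, Ikzf1 and Lmo2 are highest in DNP, while Fli1, Gata1, Gata2 and Tal1 are lowest in PF.

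Runx1, Mitf and Ikzf1 were highest in DNP. Runx1 was at 25.0, 24.7 and 26.2 FPKM in Ctrl, at 34.9, 35.4 and 36.0 FPKM in DNP and at 20.8, 21.4 and 20.3 FPKM in PF. The 3 groups did not overlap, with DNP on top and PF at the bottom. Runx1 rose in DNP vs Ctrl with a log2 fold change of 0.47 (SE 0.0397, limma adjusted p = 1.69e-04). It fell in PF vs DNP with -0.74 (SE 0.0397, limma adjusted p = 1.85e-06), where the mean fell by 41.2%, and lay below Ctrl with -0.27 (SE 0.0462, limma adjusted p = 0.00123).

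Mitf was at 17.6, 15.7 and 17.2 FPKM in Ctrl, at 24.5, 26.5 and 23.7 FPKM in DNP and at 21.2, 20.4 and 20.7 FPKM in PF. The groups did not overlap, and PF lay between Ctrl and DNP. Mitf had the largest rise of the 10 in DNP vs Ctrl, a log2 fold change of 0.54 (SE 0.0591, limma adjusted p = 5.69e-04) or 47.8% of the Ctrl mean. It was lower in PF than in DNP by 0.25 on the log2 scale (SE 0.0499, limma adjusted p = 0.00314), a call lost with PF replicate 1 as the lone PF sample, where the log2 fold change was still -0.22 and the adjusted p was 0.0568, the highest over its alternatives. Against Ctrl it was higher in PF, with 0.29 (SE 0.0539, limma adjusted p = 0.00196).

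Ikzf1 was at 46.0, 45.9 and 46.0 FPKM in Ctrl, at 57.0, 58.9 and 54.0 FPKM in DNP and at 50.7, 48.3 and 50.1 FPKM in PF. Its groups did not overlap either, and PF again lay in between. Ikzf1 rose in DNP vs Ctrl with a log2 fold change of 0.29 (SE 0.0398, limma adjusted p = 0.00136) and was lower in PF than in DNP by 0.18 (SE 0.0417, limma adjusted p = 0.00610). With PF replicate 1 as the lone PF sample the latter was still -0.16 but not called, with an adjusted p of 0.0817, the highest over its alternatives. In PF vs Ctrl it was higher by 0.11 (SE 0.0377, limma adjusted p = 0.0340). This small difference missed the threshold when any of the 3 Ctrl replicates, PF replicate 1 or PF replicate 3 was left out, although it was still 0.10 to 0.11, and with PF replicate 1 as the lone PF sample, where it was 0.14 (0.107). After scaling to the mean sum it was 0.03 with an adjusted p of 0.568, the highest over its alternatives.

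For each difference without overlap between groups, a two-sided exact permutation test on the same log2 values gave p = 0.1, the smallest that 3 samples against 3 can give. No single gene can therefore pass 0.05 in that test, and the calls rest on the spread that limma pools over genes.

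Related blood cell factors and cofactors were taken from a fixed list of 51 genes, of which 45 had a value and 32 passed the filter. In DNP vs Ctrl, 5 rose and 8 fell, with a median log2 fold change of -0.05, and the 40.6% called stand beside 29.2% of all genes. Without Ctrl replicate 2 the number that rose was 3, beside 1224 of 10305 genes. Without DNP replicate 3 the number that fell was 5, beside 1014 of 10329 genes. The largest falls were those of Hhex, a homeobox factor of blood progenitors, from 24.6 to 13.5 FPKM with -0.82 (SE 0.0802, limma adjusted p = 3.44e-04), and of the repressor gene Gfi1, from 115 to 79.2 FPKM with -0.53 (SE 0.0375, limma adjusted p = 7.55e-05). Gfi1b and Cebpg fell less, by 0.27 and 0.25. The largest rise was that of Tcf12, an E protein that pairs with TAL1 and LYL1, from 19.6 to 25.3 FPKM with 0.36 (SE 0.0407, limma adjusted p = 6.55e-04), followed by Meis1, Ssbp3 and Cbfb, which encodes the partner of RUNX1, with 0.28, 0.26 and 0.18.

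In PF vs DNP, 1 of the 32 rose and 15 fell, with a median log2 fold change of -0.16. The share called, 50.0%, was near the 48.8% of all genes. The lowest were Chd7, a chromatin remodeller, with -0.72, Tfe3, the close relative of Mitf, with -0.69, the ETS gene Elf4 with -0.68 and Runx3, a paralog of Runx1, with -0.55 (limma adjusted p between 4.97e-06 and 3.68e-04). Tcf3, which encodes the E proteins E12 and E47, rose with 0.15 (limma adjusted p = 0.0455). With median ratios 4 rose and 14 fell, beside 2758 higher and 2600 lower of 10318 genes. With the mean sum 0 rose and 23 fell, beside 869 higher and 4302 lower of 10320 genes. Without PF replicate 2 the number that rose was 3, beside 1614 of 10278 genes. Without any other single sample it was 0, beside 1499 to 1726 genes. In PF vs Ctrl, 4 of the 32 rose and 19 fell, with a median of -0.22. Hhex, Tfe3, Gfi1 and Chd7 were the lowest, between -1.16 and -0.83, and Tcf12, Ssbp3, Runx2 and Tcf3 the highest, between 0.20 and 0.45. With the mean sum 2 rose and 22 fell, beside 1575 higher and 4316 lower of 10343 genes. With PF replicate 1 alone the median of the list was -0.23. The share called, 71.9%, stands beside 57.7% of all genes.

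A fixed list held 35 genes taken as textbook targets of GATA factors, MITF or PU.1 in MCs and basophils. Of these, 33 had a value and 28 were tested. No source was given for each gene, and whether the factors act on them in these cells was not tested. In DNP vs Ctrl, 5 rose and 12 fell, so that 60.7% were called beside 29.2% of all genes. The rises were led by the cytokine genes Il4 and Il13, with log2 fold changes of 2.00 and 1.40, followed by Rab27a, a regulator of granule exocytosis and MITF target, with 0.29, and the prostaglandin D2 synthase gene Hpgds with 0.18. The falls were led by granule protease genes, Mcpt8 from 18.6 to 9.67 FPKM with -0.87 (SE 0.0814, limma adjusted p = 2.68e-04), Gzmb with -0.76, Mcpt8l2 with -0.69 and Mcpt2 with -0.64. Mcpt8 and Mcpt8l2 are paralogs between which reads may be split, so their separate values are uncertain. How alike their sequences are was not tested. The median over the 28 was -0.06. Without DNP replicate 1 or DNP replicate 2 the number that rose was 3, beside 1124 of 10321 and 1060 of 10308 genes.

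In PF vs DNP, 3 of the 28 rose and 11 fell, with a median of -0.04, and the 50.0% called were again near the 48.8% of all genes. With median ratios 6 rose and 9 fell with a median of 0.02, beside 2758 higher and 2600 lower of 10318 genes. With the mean sum 1 rose and 13 fell, beside 869 higher and 4302 lower of 10320 genes. Il4 and Il13 were lower by 1.59 and 1.06. Csf2rb, the shared β chain of the receptors for IL-3 and GM-CSF, went from 341 ± 1.75 FPKM in Ctrl to 255 ± 6.95 FPKM in DNP and 143 ± 6.54 FPKM in PF (SD, n = 3 each), with -0.84 in PF vs DNP (SE 0.0404, limma adjusted p = 1.06e-06), and Lilrb4 fell by 0.89. The genes that rose were Fcer1g and Fcer1a, which encode the γ and α chains of the IgE receptor, with 0.34 and 0.18, and Mcpt2 with 0.19. In PF vs Ctrl, 5 rose and 13 fell, with a median of -0.16, and 64.3% were called beside 57.7% of all genes. With median ratios 8 rose and 13 fell, beside 3142 higher and 3012 lower of 10342 genes. With the mean sum 2 rose and 14 fell, beside 1575 higher and 4316 lower of 10343 genes. With PF replicate 1 alone the median of the list was -0.14. Without Ctrl replicate 2, Ctrl replicate 3 or PF replicate 2 the number that rose was 3. The genes called higher were then 2175 of 10166, 2230 of 10174 and 2037 of 10277. Gzmb, Csf2rb, Mcpt8 and Lilrb4 were the lowest, between -1.40 and -0.95. Il4, Il13, Fcer1g and Ms4a2, the IgE receptor β chain gene, were the highest, between 0.14 and 0.41. Il4 measured 2.55, 3.71 and 4.22 FPKM in the PF samples labelled 4, 5 and 6 h, and 2.26 to 2.47 FPKM in Ctrl. Whether the stated times played a part was not tested. Kit, the stem cell factor receptor gene that was named here after its values were seen, was at 283 ± 8.11, 238 ± 3.58 and 228 ± 11.5 FPKM in Ctrl, DNP and PF (SD, n = 3 each), lower than Ctrl in DNP by 0.25 (limma adjusted p = 0.00120) and in PF by 0.31 (limma adjusted p = 4.73e-04).

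**Figure D4:**
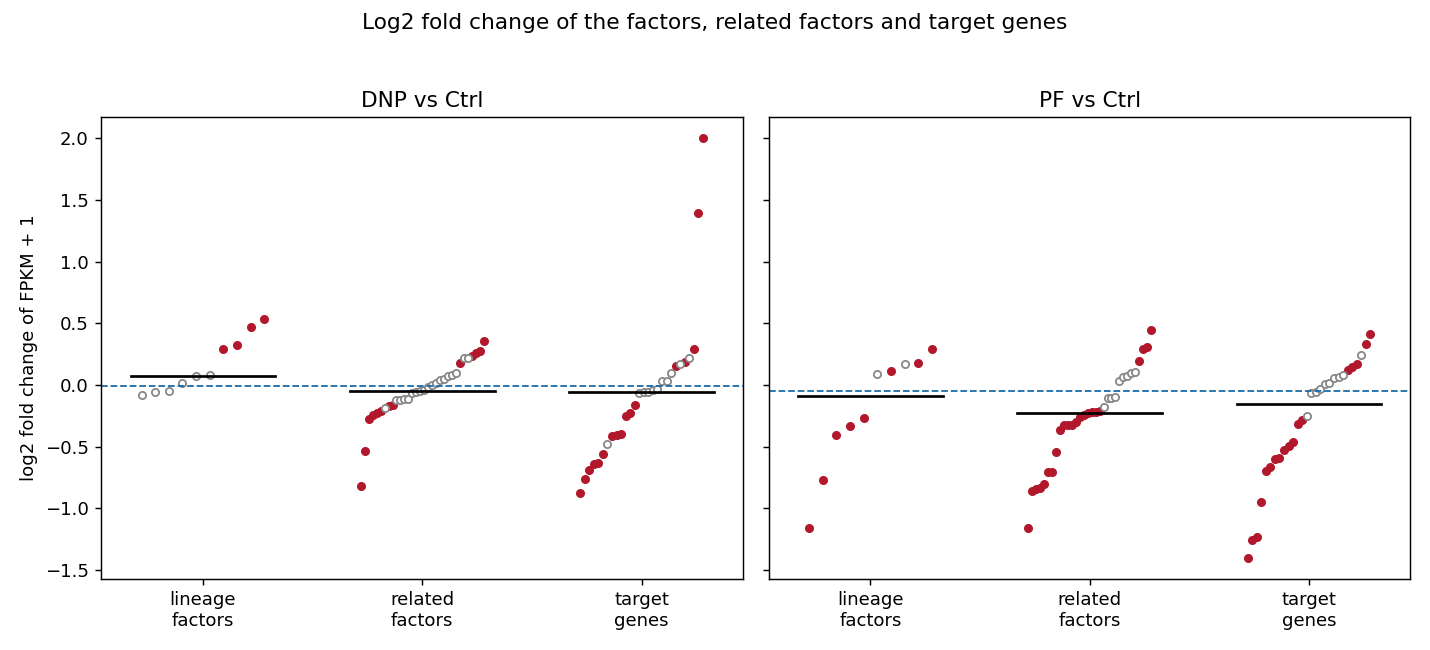
Log2 fold change of FPKM + 1 of the 10 lineage factors, 32 related factors and 28 target genes in DNP vs Ctrl and PF vs Ctrl, 1 point per gene sorted by value within each list. Red points have a limma adjusted p of at most 0.05, black bars are list medians and the dashed line is the median over every gene tested. In DNP vs Ctrl the filled points of the lineage factors all lie above 0, and in PF vs Ctrl they lie on either side.

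The 3 factors whose group means ranged most were Fli1 (1.18 on the log2 scale), Gata1 (0.77) and Runx1 (0.74), and for each the genes with the most similar course over the 9 samples were sought among 10278 genes. Likeness was the root mean square difference of log2(FPKM + 1) after centring each gene on its own mean. Nearest to Fli1 were Lin54, a DNA-binding subunit of the DREAM complex, at 0.0420, and Tjap1 at 0.0484. Lin54 had means of 12.0, 11.5 and 4.65 FPKM in Ctrl, DNP and PF. Nearest to Gata1 were Ddx20, an RNA helicase gene with means of 21.9, 21.3 and 12.1 FPKM, at 0.0498, and the peroxisomal gene Pex26 at 0.0511. Nearest to Runx1 were Aim2, a sensor of cytosolic DNA with means of 49.3, 66.5 and 40.2 FPKM, at 0.0444, and Cldnd1 at 0.0477. This is a description of resemblance in 9 samples that fall into 3 groups.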

How the data were processed

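RNA of 9 RBL-2H3 samples was sequenced (BGISEQ-500 by the study's methods). By the methods and the submitters' processing notes, the authors filtered reads with SOAPnuke, mapped them with HISAT2 2.0.4, aligned them with Bowtie2 2.2.5 and quantified genes with RSEM 1.2.12 on rn6. The deposited values are read as FPKM, since their heading names no unit and they have decimals and unequal sums. Each file listed 38490 genes, 20484 of them empty in every sample. The factors and gene lists were chosen with earlier results of these data known.

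Each comparison was fitted with limma 3.58.1 in R 4.3.3 (eBayes with trend, no block) on log2(FPKM + 1). A gene entered if 3 or more of the 6 samples reached 1 FPKM. P-values were adjusted by Benjamini-Hochberg over all genes tested, with a threshold of 0.05. A pseudocount of 1 understates changes of low genes. The read depth is unknown, so no counting error is given, and precision rests on 3 replicates. Named beside the factors were, from each list and comparison, up to 4 genes highest and 4 lowest among those called without overlap between groups, and the 2 genes most like each of the 3 factors that ranged most. The procedure was tested on simulated data. The companion tests for count data were not run, since FPKM holds no counts.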

Additional observations from a re-analysis of the deposited data

How the results depend on the processing

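Alternatives were a pseudocount of 0.1, no filter or a filter in every sample, all 3 groups in a fit, a replicate block, median ratio or mean sum scaling, no trend, a threshold of 0.01, each sample left out in turn and, added after seeing the data, PF replicate 1 alone. At 0.01, DNP vs Ctrl had 1469 genes called in place of 3031, and Lmo2 missed the threshold. The totals of genes and of factors called otherwise stayed within 1.5 times their values, but the split by direction did not. With the mean sum, 869 genes were higher in PF vs DNP in place of 1870. The factors higher in PF vs Ctrl numbered 1 with the mean sum and 5 with median ratios, in place of 3. The genes called higher there numbered 1575 and 3142, in place of 2389. With each sample left out, between 2099 and 2736 genes were called in DNP vs Ctrl, 4138 and 4796 in PF vs DNP, and 5147 and 5541 in PF vs Ctrl, and the factors called numbered 4, 7 to 8 and 6 to 8. Changed calls of single factors are given with their genes. In PF vs Ctrl, the calls of Lyl1 and Ikzf1 were also lost at 0.01, that of Lyl1 with all 3 groups in the fit (adjusted p = 0.112) or no filter (0.0696) and that of Ikzf1 without trend (0.0655). No called difference changed sign.

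Samples sharing a replicate number showed correlated deviations of -0.0739 to 0.0514 (DNP vs Ctrl), -0.0822 to 0.00049 (PF vs DNP) and 0.083 to 0.189 (PF vs Ctrl), so the numbers were not taken as pairs, although in PF vs Ctrl all 6 samples correlated best with their own number. With the replicate block, 2697, 4675 and 6009 genes and 4, 8 and 8 factors were called, the added factor being Lmo2 in PF vs DNP (adjusted p = 0.0334).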
